A study of Mus musculus with 13 samples.

Results

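The genes described here build and move mitotic chromosomes: the kinesin motors of the spindle, condensin with topoisomerase II, cohesin with its loader and modifiers, and a set of spindle assembly and cytokinesis proteins. They were taken by gene symbol from a list of 37 genes, each represented by its probe set. The rule for membership uses no measured value of a comparison, but the list was drawn up with earlier results of these data known. Of the 37, 36 had a probe set of their own among 22180 genes measured, and Ncapg was not analysed here because its probe set is shared with Lcorl. RNA came from CD205+CD8+ dendritic cells, the type 1 conventional dendritic cells (cDC1) that take up dead cells and show their antigens to CD8 T cells, sorted from the spleens of C57Bl/6 littermates labelled male. All mice carried a B16 melanoma secreting Flt3L, a cytokine that expands dendritic cells, given under the skin at 6 weeks of age. After 5 days they received 100 ul of PBS, alone or with 50 ug of muramyl dipeptide (MDP), a bacterial cell wall fragment sensed by NOD2, and spleens were taken 24 h later. A further sort by surface CD103, the integrin chain that Itgae encodes, split them into a low and a high fraction. This gave 4 arrays of PBS CD103 low and 3 of PBS CD103 high cells, and 3 arrays of each fraction after MDP (MDP CD103 low, MDP CD103 high), numbered here by their replicate numbers in the titles. The sort was made after treatment, so a fraction is defined by its CD103 at 24 h and not by the cells it came from, and no group lacks the tumour or its Flt3L. Values are log2 expression after RMA, a method that corrects background and makes the arrays alike in distribution, and a difference of 1 on this scale is a 2-fold difference.

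During division, cohesin rings hold sister chromatids together from replication until anaphase, condensin with topoisomerase II compacts and untangles them, and kinesins set up the spindle, move chromosomes and build the midzone at which the cell is cut. Cohesin also works outside mitosis, where it extrudes DNA loops in resting cells, while most mitotic kinesins and the non-SMC condensin subunits are made mainly as a cell approaches division. The DREAM and MuvB complexes and E2F factors control many genes of the latter kind, through the cell cycle homology region (CHR) and E2F elements close to the transcription start, often beside CCAAT boxes bound by NF-Y.

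The promoter letters of some members are shown so that genes of different function and change can be set side by side. RefSeq promoter windows on build GRCm38.p6, from 250 bases before to 50 bases after each annotated start, were found for 29 of the 37 genes, as 32 windows, and none was found for Kif20a, Smc4, Rad21, Stag2, Nipbl, Esco1, Esco2 and Tpx2. The 120 bases before the start of 8 genes follow, read 5′ to 3′ on the strand of the gene. Capitals mark TTTGAA, the CHR letters, the box CCAAT, or the E2F letters TTGGCGC, on either strand.
Kif11, chr19:37376262-37376381, plus strand: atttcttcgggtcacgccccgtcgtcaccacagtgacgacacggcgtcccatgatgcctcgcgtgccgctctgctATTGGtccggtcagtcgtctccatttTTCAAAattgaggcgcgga
Kif22, chr7:127042421-127042540, minus strand: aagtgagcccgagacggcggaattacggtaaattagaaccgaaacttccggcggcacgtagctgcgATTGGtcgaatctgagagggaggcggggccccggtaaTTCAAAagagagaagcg
Ncapg2, chr12:116405316-116405435, plus strand: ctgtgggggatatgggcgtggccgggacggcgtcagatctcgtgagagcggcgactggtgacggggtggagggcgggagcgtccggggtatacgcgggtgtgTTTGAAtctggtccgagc
Top2a, chr11:99024190-99024309, minus strand: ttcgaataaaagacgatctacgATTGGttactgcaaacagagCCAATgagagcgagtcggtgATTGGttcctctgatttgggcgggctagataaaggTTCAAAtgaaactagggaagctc
Cdca5, chr19:6084977-6085096, plus strand: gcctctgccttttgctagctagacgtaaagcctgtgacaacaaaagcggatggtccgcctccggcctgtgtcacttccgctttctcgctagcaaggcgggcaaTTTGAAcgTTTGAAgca
Pds5b, chr5:150673707-150673826, plus strand: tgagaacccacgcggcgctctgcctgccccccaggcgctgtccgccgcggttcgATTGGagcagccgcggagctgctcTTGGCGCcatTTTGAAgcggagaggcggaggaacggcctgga
Smc1a, chrX:152016308-152016427, plus strand: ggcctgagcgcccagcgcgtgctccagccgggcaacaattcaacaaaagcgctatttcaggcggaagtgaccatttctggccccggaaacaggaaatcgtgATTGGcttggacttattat
Smc3, chr19:53600276-53600395, plus strand: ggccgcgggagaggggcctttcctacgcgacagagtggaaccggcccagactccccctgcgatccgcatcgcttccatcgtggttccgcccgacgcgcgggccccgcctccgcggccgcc
Kif11, Kif22 and Top2a held the CHR letters at positions -19 to -14, -17 to -12 and -23 to -18, counted from the start, with a CCAAT box upstream of each. Cdca5 held TTTGAA at positions -17 to -12 and -9 to -4, and Ncapg2 held it at positions -18 to -13 without a CCAAT box in the window. The cohesin genes shown differed among themselves: Pds5b held all 3 motifs, Smc1a only CCAAT, and Smc3 none of the 3.

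TTTGAA stood in the windows of 22 of 29 members, or 75.9%, against 17.8% of the 16990 genes tested on the arrays that had a window and 20.2% of all 27025 RefSeq genes with a window. Between 60 bases before and 50 bases after the start it was found in 18 of 29 members (62.1%) and in 881 tested genes (5.19%). CCAAT was found in 17 of 29 members, or 58.6%, against 41.6% of tested genes, and TTGGCGC in 9, or 31.0%, against 3.60%. By function, TTTGAA was in 10 of 11 mitotic kinesins, 6 of 8 condensin and topoisomerase genes, 4 of 4 spindle and cytokinesis genes, in Cdca5, and in 1 of 5 genes of the cohesin ring, loader and Pds5 proteins. Kinesins that carry cargo outside mitosis held it in 1 of 13 genes. By change, it was in 14 of 17 members that rose with MDP in CD103 high cells and in 7 of 11 that did not pass. These are matches of letters in a window, given as a description with no test.

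**Figure D1:**
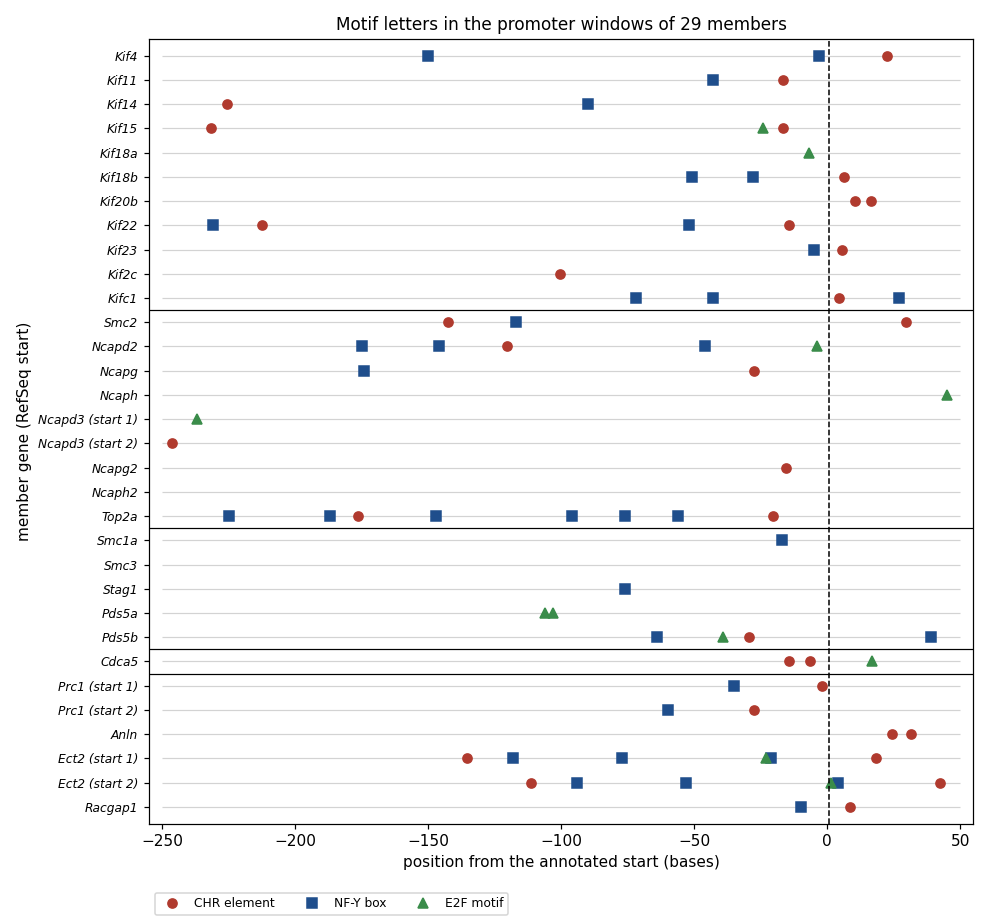
Positions of 3 motifs in the RefSeq promoter windows of 29 members. The x axis is the distance in bases from the annotated start (dashed line), each row is a window, and circles, squares and triangles mark TTTGAA (the CHR element), CCAAT (the NF-Y box) and TTGGCGC (the E2F motif) on either strand. Circles gather close to the start in the kinesin, spindle and Cdca5 rows, and Pds5b has the only circle among the 5 cohesin ring, loader and Pds5 rows.

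The arrays were alike in level, with medians of 5.00 to 5.13, and all 36 members lay above 5.12, the 95th percentile of 1105 olfactory receptor genes taken as a measure of background, on every array. Although every mouse was labelled male, Xist was 10.98 to 11.21 on 7 arrays with a mean of 3.50 to 4.39 over the Y-linked Eif2s3y, Kdm5d and Uty. On the other 6 arrays it was 4.47 to 6.69, with a Y-linked mean of 7.85 to 8.21. The labels and these values differ for those 7 arrays, which are 2 of the 4 PBS CD103 low, 2 of the 3 PBS CD103 high, 1 of the 3 MDP CD103 low and 2 of the 3 MDP CD103 high arrays, so member values are also given within each side. Itgae, the gene of the sorted protein, was 2.23 ± 0.23 (SE) higher in CD103 high than low cells of PBS mice and rose by 2.21 ± 0.23 with MDP in the CD103 low fraction (limma adjusted p = 0.00376 and 0.00838). Its difference between the fractions after MDP was 1.22 ± 0.25 (adjusted p = 0.0529), and it rose by 1.20 ± 0.25 with MDP in the CD103 high fraction (adjusted p = 0.0290). Its mean was 10.15 in PBS CD103 high and 10.13 in MDP CD103 low, so low and high do not stand for the same Itgae level in both treatments. All 11 measured cDC1 markers lay above the olfactory level, and their mean per array ran from 10.26 to 10.71. Of 5 markers of type 2 conventional dendritic cells (cDC2), 4 lay above it too, all but Clec4a4. The mean of the cDC2 list ran from 4.89 to 5.40. Whether arrays represent separate mice is not stated, so p-values reflect no more than array-to-array spread, which may be technical. In sorted bulk RNA more cells in division and more RNA per cell cannot be told apart.

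In CD103 high dendritic cells, 24 h of MDP was accompanied by higher RNA of much of the mitotic machinery, and in CD103 low cells no member passed the same test. Comparing MDP with PBS in CD103 high cells, 19 of 36 members rose and 0 fell past an adjusted p of 0.05 in limma, against 1.82% of all genes called in either direction, 1.42% higher and 0.397% lower. Their median log2 difference was 0.62 over all 36 members, against -0.01 over all genes, and 35 of 36 lay above 0. In 30 members the 3 MDP arrays all lay above the 3 PBS arrays, against 8.96% of all genes. Without PBS CD103 high array 5, PBS CD103 high array 6, MDP CD103 high array 2 or MDP CD103 high array 3 the count was 7, 5, 7 and 7, and it was 11 when only the 6 arrays compared were fitted. With the replicate number as a fixed term in the model, shared by PBS and MDP arrays of the same number, 0 members were called.

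Within MDP mice, CD103 high cells stood above CD103 low cells for much of the same machinery. The count was 11 members higher and 0 lower, against 0.523% of all genes called, 0.473% higher and 0.0496% lower, with a median of 0.64 over the 36 members and -0.01 over all genes. Arrays of the fractions did not overlap, with the high fraction above, for 30 members and for 6.43% of all genes, and with the high fraction below for 0 members and 7.93% of all genes. These arrays limit the count: it was 2 without MDP CD103 low array 1, 6 without MDP CD103 low array 3, and 0 without MDP CD103 high array 2, without MDP CD103 high array 3, or when only the 6 arrays compared were fitted. With the mean of the Y-linked genes as a covariate it was 6. With arrays of the same treatment and number as a random block, 14 members passed, the 3 added being Kif11, Kif22 and Ncapd2 (adjusted p = 0.0484, 0.0438 and 0.0339), and with the replicate number as a fixed term 0 passed. The MDP CD103 high arrays enter both this comparison and the preceding one, so the results are not independent of each other.

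The remaining comparisons called no member. In PBS mice, CD103 high against low gave 0 calls among members and 0.0766% among all genes (0.0451% higher, 0.0316% lower), a median of -0.15, and 35 of 36 members below 0. At an unadjusted p under 0.05 in limma, 6 of 36 members passed, against 1889 of all 22180 genes. In 6 members the CD103 high arrays all lay below the low ones, against 4.05% of all genes. They all lay above in 0 members and 4.48% of all genes. All 6 members with the CD103 high arrays below were cohesin ring or Pds5 genes, and Kifc1 was the member with a difference above 0, at 0.48 ± 0.25. MDP against PBS in CD103 low cells gave 0 calls among members and 0.00451% among all genes, a median of -0.14 and 30 members below 0. There 3 of 36 members had an unadjusted p under 0.05 in limma, against 1343 of all 22180 genes. In 4 members all MDP arrays lay below the PBS arrays, against 2.52% of all genes: Kif4, Kif18b, Ncapg2 and Esco2. All MDP arrays lay above in 0 members and 2.98% of all genes.

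**Figure D2:**
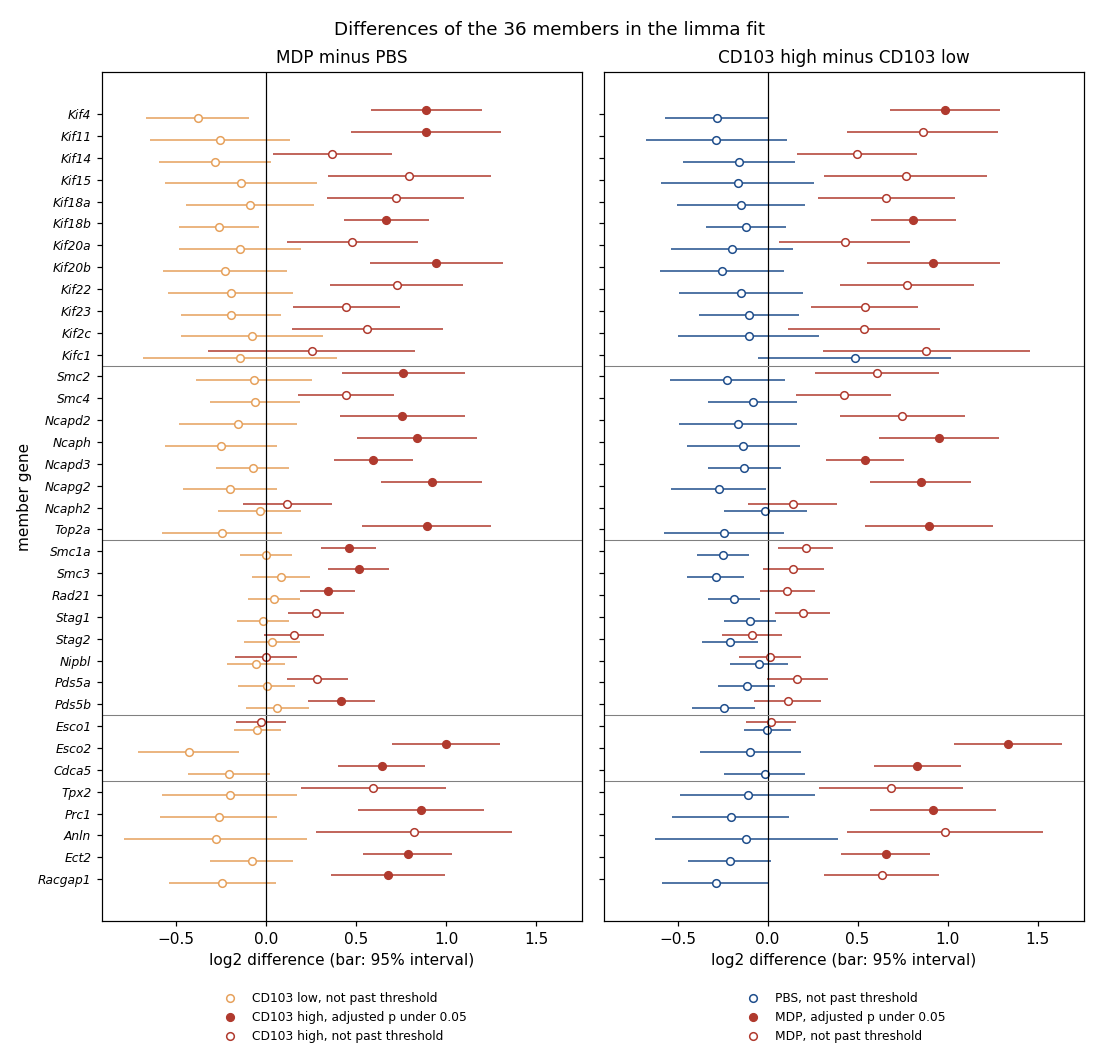
Log2 differences of the 36 members with their 95% intervals in the limma fit, for MDP minus PBS (left) and CD103 high minus CD103 low (right). Rows are genes, grouped by function with grey lines between groups, colours are the cell fraction or treatment given under each panel, and filled points passed an adjusted p of 0.05. Filled points occur only for MDP against PBS in CD103 high cells (19) and for CD103 high against low cells after MDP (11), and all lie to the right of 0.

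The difference of the differences was tested as an interaction. It passed for 4 members, Esco2 (1.43 ± 0.19), Kif4 (1.27 ± 0.19), Ncapg2 (1.12 ± 0.18) and Kif18b (0.93 ± 0.15), each with a limma adjusted p of 0.0486, against 0.0721% of all genes. These values are the log2 difference of MDP minus PBS in the CD103 high fraction, less the same difference in the low fraction. Part of each comes from the low fraction, where that difference was below 0 without passing. It was -0.43 for Esco2, -0.38 for Kif4, -0.20 for Ncapg2 and -0.26 for Kif18b. The interaction lay above 0 for all 36 members, with a median of 0.80 against -0.01 over all genes. With the random block the count was 6, Cdca5 and Ect2 being added at adjusted p = 0.0361 and 0.0335, and with the replicate number as a fixed term it was 0. The calls depended on single arrays: the count was 0 without any of 9 arrays, namely PBS CD103 low arrays 1, 3 and 4, PBS CD103 high arrays 5 and 6, MDP CD103 low array 3 and MDP CD103 high arrays 2, 3 and 4. It was 1 without MDP CD103 low array 1 or 2, 9 without PBS CD103 high array 4, 7 without PBS CD103 low array 6, and 0 with Y-linked RNA as a covariate.

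**Figure D3:**
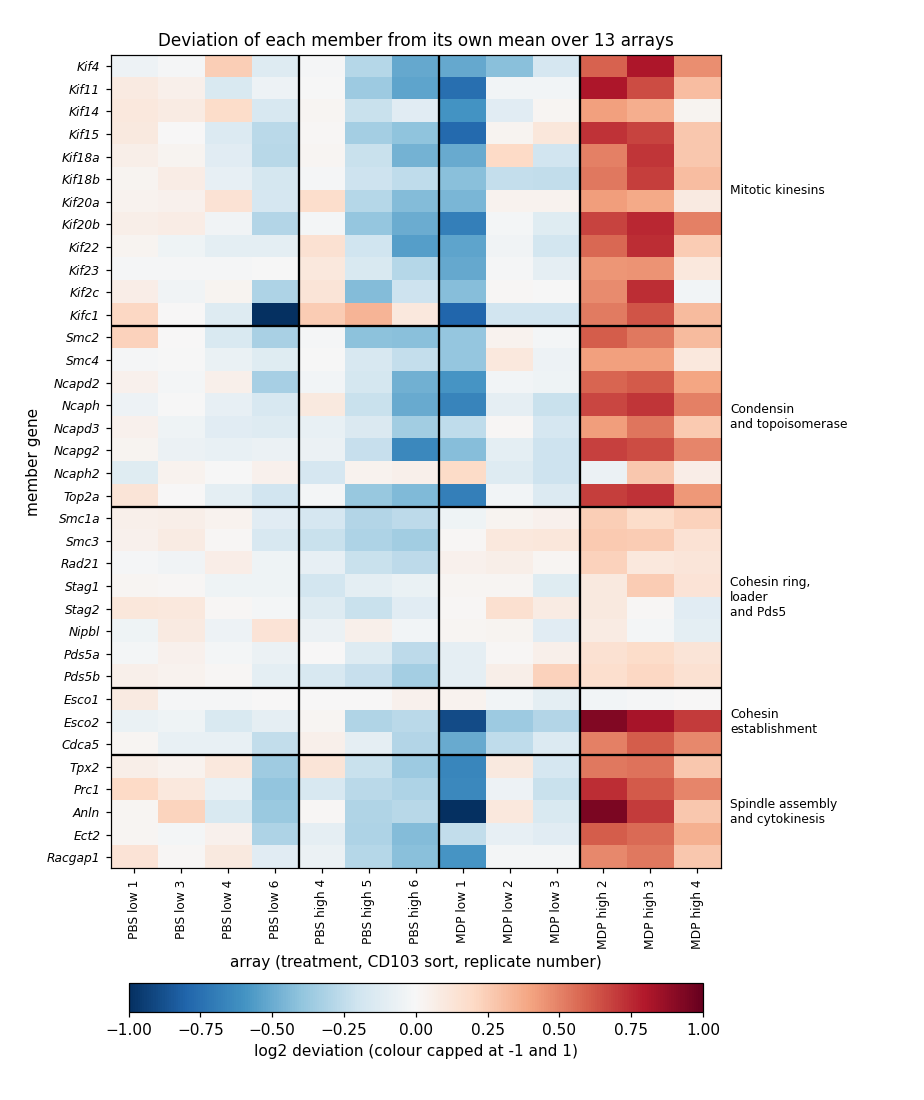
Deviation of each of the 36 members (rows) from its own mean over the 13 arrays (columns), in log2 units, with colour capped at -1 and 1. Black lines separate groups of arrays and functional groups. The 3 MDP CD103 high columns are red for nearly all kinesin, condensin and cytokinesis rows, MDP CD103 low array 1 is the bluest column, and the cohesin ring rows are pale.

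Among 12 mitotic kinesins, Kif4, Kif11, Kif18b and Kif20b rose with MDP in CD103 high cells, and 0 fell. Kif4, Kif18b and Kif20b were also higher in CD103 high than low cells after MDP. The list's medians were 0.69 and 0.77 in these comparisons, all 12 lying above 0 in each. For MDP against PBS the count was 1 without PBS CD103 high array 5, 0 without PBS CD103 high array 6, and 2 without MDP CD103 high array 2, without MDP CD103 high array 3, or with only the arrays compared. It was 7 without MDP CD103 low array 1. Between the fractions it was 0 without MDP CD103 low array 1, MDP CD103 high array 2 or MDP CD103 high array 3.

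Chromokinesins link chromosome arms to the spindle. Kif4 (probe set 17536566), which also shapes chromosomes with condensin and organises the midzone, was 6.49, 6.53, 6.79 and 6.41 in PBS CD103 low, 6.53, 6.26 and 6.03 in PBS CD103 high, 6.03, 6.13 and 6.38 in MDP CD103 low, and 7.13, 7.35 and 7.01 in MDP CD103 high. All 3 MDP CD103 high arrays lay above the other 10, PBS CD103 high overlapped with both CD103 low groups, and all MDP CD103 low arrays lay below all PBS CD103 low arrays. It rose by 0.89 ± 0.14, or 1.85-fold, with MDP in CD103 high cells and was 0.99 ± 0.14, or 1.98-fold, higher in CD103 high than low cells after MDP (limma adjusted p = 0.00863 and 0.018). In CD103 low cells MDP and PBS differed by -0.38 ± 0.13 (adjusted p = 0.765). The rise lost its call without PBS CD103 high array 6, and the difference between the fractions without MDP CD103 low array 1, MDP CD103 high array 2 or MDP CD103 high array 3. Kif22, the chromokinesin that pushes chromosome arms away from the poles, differed by 0.73 ± 0.17 with MDP in CD103 high cells, at an adjusted p of 0.0525.

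Motors that slide antipolar microtubules apart make the spindle bipolar. Kif11, the main such motor, rose from 8.35 ± 0.27 (SD, n = 3) in PBS to 9.24 ± 0.25 (n = 3) in MDP CD103 high cells, a difference of 0.89 ± 0.19 (SE; limma adjusted p = 0.0354). Kif15, which can take over from Kif11, differed by 0.80 ± 0.21 there (adjusted p = 0.0824). Kifc1, the minus-end motor that gathers spindle poles, went against the pattern of the others in PBS mice, with 7.17 ± 0.57 (n = 4) in CD103 low and 7.65 ± 0.12 (n = 3) in CD103 high cells. In that CD103 low group array 6 was at 6.34 and the others at 7.29 to 7.62.

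Kinesin-8 and kinesin-13 motors control microtubule length at chromosomes. Kif18b (probe set 17270369), which shortens astral microtubules, was 8.14, 8.19, 8.03 and 7.94 in PBS CD103 low, 8.10, 7.90 and 7.85 in PBS CD103 high, 7.69, 7.87 and 7.87 in MDP CD103 low, and 8.64, 8.80 and 8.42 in MDP CD103 high cells. MDP CD103 high arrays were again above all others, and every MDP CD103 low array lay below every PBS CD103 low array. Kif18b rose by 0.67 ± 0.11 with MDP in CD103 high cells and was 0.81 ± 0.11 higher in CD103 high than low cells after MDP (limma adjusted p = 0.00977 and 0.0167). The rise was not called without PBS CD103 high array 5 or 6, nor the difference between fractions without MDP CD103 low array 1 or MDP CD103 high array 2 or 3. Kif18a, which damps chromosome movement, and Kif2c, the depolymeriser that corrects wrong attachments, differed by 0.72 ± 0.18 and 0.56 ± 0.19 with MDP in CD103 high cells without passing (adjusted p = 0.0616 and 0.207).

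Kif14, Kif20a, Kif20b and Kif23 act at the midzone and in cytokinesis. Kif20b had the largest kinesin difference between MDP and PBS in CD103 high cells, 0.95 ± 0.17 (limma adjusted p = 0.015), from 7.16 ± 0.25 (SD, n = 3) to 8.10 ± 0.13 (n = 3). The other members of this role had differences of 0.37 ± 0.15 (Kif14), 0.48 ± 0.17 (Kif20a) and 0.45 ± 0.14 (Kif23), none of which passed (adjusted p = 0.316, 0.213 and 0.149).

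Among condensin genes and Top2a, 6 of 8 measured genes rose with MDP in CD103 high cells and 4 of 8 were higher in CD103 high than low cells after MDP, with medians of 0.76 and 0.68. Smc2, the ATPase subunit of both, Ncapd2 and Ncaph of condensin I, Ncapd3 and Ncapg2 of condensin II, and Top2a rose with MDP, while Smc4, the partner of Smc2, differed by 0.44 ± 0.12 (limma adjusted p = 0.102). Between the fractions after MDP, Ncaph, Ncapd3, Ncapg2 and Top2a passed. The count with MDP was 2 without PBS CD103 high array 5, 1 without PBS CD103 high array 6, MDP CD103 high array 2 or MDP CD103 high array 3, and 3 with only the arrays compared. Between the fractions it was 2 without PBS CD103 low array 3 or 4, PBS CD103 high array 5 or MDP CD103 low array 3 and with the Y-linked covariate, and 0 without MDP CD103 low array 1, MDP CD103 high array 2 or MDP CD103 high array 3.

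Ncapg2 (probe set 17279608), the HEAT-repeat subunit of condensin II, was 7.82, 7.73, 7.72 and 7.73 in PBS CD103 low, 7.73, 7.56 and 7.15 in PBS CD103 high, 7.37, 7.70 and 7.59 in MDP CD103 low, and 8.48, 8.45 and 8.29 in MDP CD103 high cells. The MDP CD103 high arrays stood above every other array. Ncapg2 rose by 0.92 ± 0.13, or 1.89-fold, with MDP in CD103 high cells and was 0.85 ± 0.13 higher in CD103 high than low cells after MDP (limma adjusted p = 0.00502 and 0.018). Ncapd3 (probe set 17515577), the other large HEAT-repeat subunit of condensin II, was 8.57, 8.48, 8.41 and 8.39 in PBS CD103 low, 8.45, 8.38 and 8.17 in PBS CD103 high, 8.27, 8.54 and 8.35 in MDP CD103 low, and 8.94, 9.05 and 8.79 in MDP CD103 high cells. Here too the last group stood above the rest, with a rise of 0.60 ± 0.10 with MDP and a difference of 0.54 ± 0.10 between the fractions (adjusted p = 0.0116 and 0.034). Ncaph2, the kleisin of condensin II, had no such pattern: its 4 group means were 8.01 to 8.15, all groups overlapped, and MDP differed from PBS by 0.12 ± 0.11 in CD103 high cells, with a 95% interval of -0.13 to 0.37.

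Ncaph (probe set 17391212), the kleisin that closes condensin I, was 8.03, 8.07, 8.001 and 7.92 in PBS CD103 low, 8.18, 7.86 and 7.58 in PBS CD103 high, 7.42, 7.99 and 7.86 in MDP CD103 low, and 8.75, 8.80 and 8.58 in MDP CD103 high cells. The lowest of the last group was 8.58 and the highest of the rest 8.18. Ncaph rose by 0.84 ± 0.15 with MDP in CD103 high cells and was 0.95 ± 0.15, or 1.93-fold, higher in CD103 high than low cells after MDP (limma adjusted p = 0.0161 and 0.0216). Top2a, which passes DNA strands through each other and is a widely used marker of dividing cells, rose from 8.46 ± 0.23 (SD, n = 3) to 9.36 ± 0.16 (n = 3), or 1.86-fold (adjusted p = 0.0162).

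In median, the differences that involve MDP CD103 high cells were smaller in the cohesin ring, loader and Pds5 list than in the kinesins. With MDP in CD103 high cells 4 of 8 rose, Smc1a, Smc3, Rad21 and Pds5b, and the list median was 0.31, against 0.69 for the kinesins. Between the fractions after MDP 0 of 8 passed, with a median of 0.13. At an unadjusted p under 0.05 in limma 2 did, against 2255 of all 22180 genes. PBS CD103 high had the lowest mean of the 4 groups for 7 of the 8 genes, and MDP CD103 low lay near PBS CD103 low. A lowest mean in PBS CD103 high was not particular to this list. It held for 20 of all 36 members, kinesins such as Kif11 and condensin genes such as Smc2 among them. For the rises with MDP the count was 2 without PBS CD103 high array 5 or 6, without any MDP CD103 high replicate, or with only the arrays compared. Whether these genes as a list differed from the kinesins was not tested.

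Smc3 (probe set 17360355), an ATPase arm of the ring, was 9.36, 9.40, 9.33 and 9.16 in PBS CD103 low, 9.10, 9.005 and 8.97 in PBS CD103 high, 9.33, 9.43 and 9.43 in MDP CD103 low, and 9.58, 9.57 and 9.46 in MDP CD103 high cells. PBS CD103 high arrays lay below all others and MDP CD103 high arrays above all others, while both CD103 low groups overlapped. The rise with MDP in CD103 high cells was 0.52 ± 0.08, or 1.43-fold (limma adjusted p = 0.00664), and the difference between fractions was -0.29 ± 0.07 in PBS and 0.14 ± 0.08 in MDP mice (adjusted p = 0.289 and 0.581). Smc1a (probe set 17538862), the other arm, was 9.71, 9.72, 9.69 and 9.54 in PBS CD103 low, 9.49, 9.36 and 9.39 in PBS CD103 high, 9.61, 9.68 and 9.70 in MDP CD103 low, and 9.90, 9.84 and 9.88 in MDP CD103 high cells. Its groups had the same order, with a rise of 0.46 ± 0.07, or 1.38-fold (adjusted p = 0.00719).

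Rad21, the kleisin that separase cuts at anaphase, rose by 0.34 ± 0.07 and Pds5b, a regulator bound to the ring, by 0.42 ± 0.09 with MDP in CD103 high cells (limma adjusted p = 0.0286 and 0.0288). Stag1, Stag2 and Pds5a, subunits or partners of the same ring, had differences of 0.28 ± 0.07, 0.16 ± 0.08 and 0.29 ± 0.08 that did not pass (adjusted p = 0.0781, 0.415 and 0.0945). Nipbl, the loader, differed by 0.00 ± 0.08, with a 95% interval of -0.17 to 0.17 and group means of 9.35 to 9.40. Stag2 had its highest mean in MDP CD103 low (8.31 ± 0.07, SD, n = 3) and Nipbl in PBS CD103 low.

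**Figure D4:**
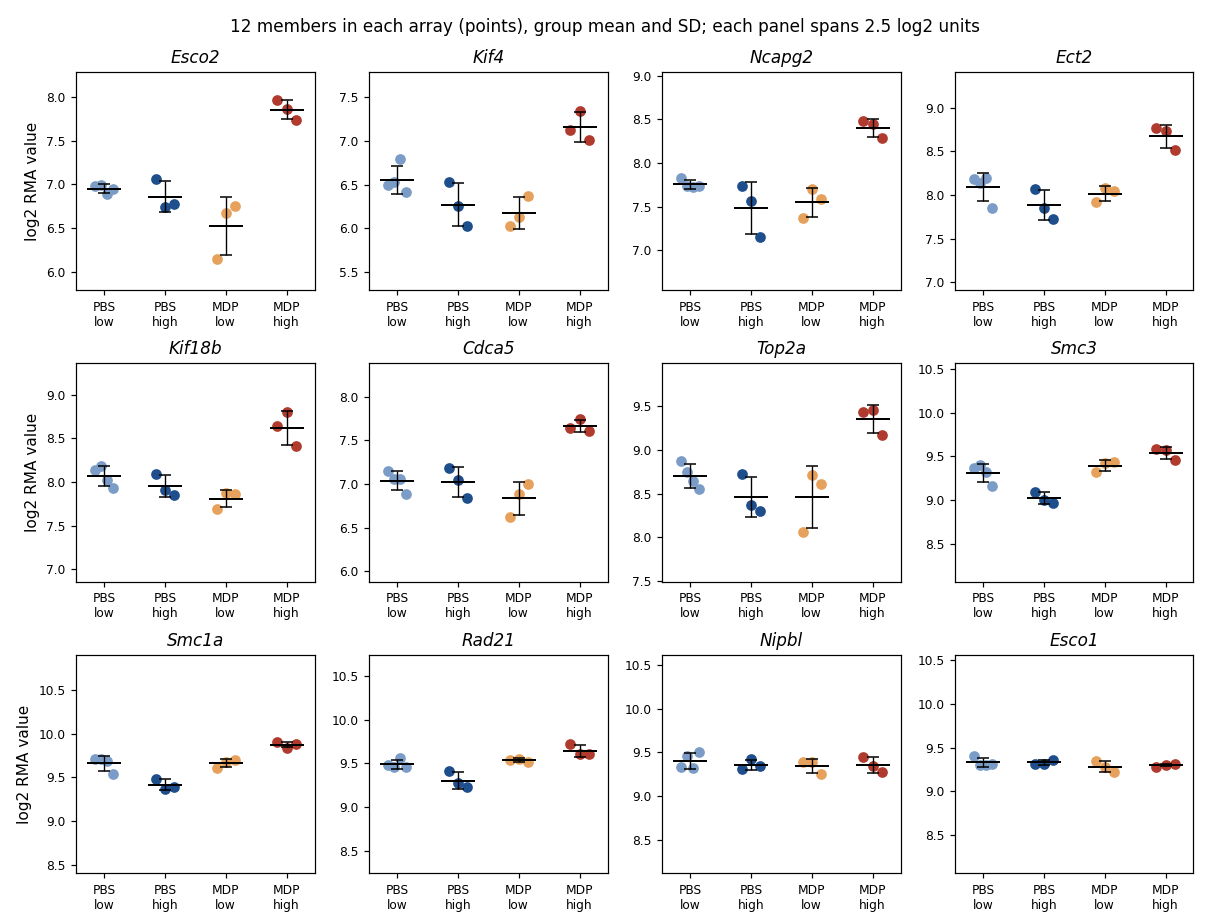
Log2 values of 12 members in each of the 13 arrays, as points, with the group mean (line) and SD (bars), for 4 PBS CD103 low arrays and 3 arrays of each other group. Each panel is a gene and its y axis spans 2.5 log2 units, so that slopes can be compared between panels but levels cannot. In the upper panels MDP CD103 high stands above the rest, in Smc3 and Smc1a the PBS CD103 high arrays also lie below all others, and Nipbl and Esco1 are flat.

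Cohesion is made permanent in S phase by acetylation of Smc3 and by sororin. The pair of acetyltransferases had unlike values. Esco2 (probe set 17307774), which acts at replication forks, was 6.98, 6.997, 6.89 and 6.95 in PBS CD103 low, 7.06, 6.74 and 6.77 in PBS CD103 high, 6.15, 6.67 and 6.75 in MDP CD103 low, and 7.96, 7.86 and 7.74 in MDP CD103 high cells. The MDP CD103 high arrays lay above every other array, and all MDP CD103 low arrays lay below all PBS CD103 low arrays. Esco2 rose by 1.00 ± 0.14, or 2.00-fold, with MDP in CD103 high cells and was 1.33 ± 0.14, or 2.52-fold, higher in CD103 high than low cells after MDP (limma adjusted p = 0.00502 and 0.00698). Esco1, which acetylates Smc3 throughout the cell cycle, kept group means of 9.28 to 9.33 and differed by -0.03 ± 0.06 with MDP in CD103 high cells, with a 95% interval of -0.17 to 0.11.

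Cdca5 (probe set 17356622) encodes sororin, which shields the acetylated ring from release. It was 7.15, 7.06, 7.06 and 6.89 in PBS CD103 low, 7.19, 7.04 and 6.84 in PBS CD103 high, 6.63, 6.88 and 6.995 in MDP CD103 low, and 7.64, 7.74 and 7.61 in MDP CD103 high cells. The last group did not overlap with any other, and the other groups overlapped with each other. Cdca5 rose by 0.64 ± 0.11 with MDP in CD103 high cells and was 0.83 ± 0.11 higher in CD103 high than low cells after MDP (limma adjusted p = 0.0128 and 0.0167). Neither Cdca5 nor Esco2 passed between fractions after MDP without MDP CD103 high array 2 or without MDP CD103 high array 3. With MDP in CD103 high cells Cdca5 also lost its call without PBS CD103 high array 5 or 6 and without MDP CD103 high array 2 or 3, while Esco2 kept it without each of the 13 arrays in turn.

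Of the 5 spindle assembly and cytokinesis genes, Prc1, Ect2 and Racgap1 rose with MDP in CD103 high cells, and Prc1 and Ect2 were higher in CD103 high than low cells after MDP. The medians were 0.79 and 0.69, and all 5 had non-overlapping arrays in both comparisons. Ect2 (probe set 17404402), the exchange factor that switches on RhoA at the cleavage furrow, was 8.18, 8.14, 8.20 and 7.86 in PBS CD103 low, 8.07, 7.85 and 7.73 in PBS CD103 high, 7.92, 8.08 and 8.05 in MDP CD103 low, and 8.77, 8.73 and 8.52 in MDP CD103 high cells. Only the last group stood apart. Its rise was 0.79 ± 0.11, or 1.73-fold, and its difference between the fractions 0.66 ± 0.11 (limma adjusted p = 0.0052 and 0.0257).

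Prc1, the bundler of midzone microtubules that recruits Kif4, rose by 0.86 ± 0.16 (limma adjusted p = 0.0168), and Racgap1, which with Kif23 forms centralspindlin and activates Ect2, by 0.68 ± 0.15 (adjusted p = 0.0354). Anln, the anillin scaffold of the contractile ring, had a difference of 0.82 ± 0.25 and Tpx2, a spindle nucleation factor that activates Aurora A, of 0.60 ± 0.19, neither past the threshold (adjusted p = 0.145 and 0.153). Within MDP CD103 low, Anln was 5.76 in array 1 against 6.87 and 6.61 in the others. For the list, 1 gene passed with MDP without PBS CD103 high array 5 or 6 or without MDP CD103 high array 2 or 3. Between fractions 0 passed without MDP CD103 low array 1 or 3, without MDP CD103 high array 2 or 3, or with the Y-linked covariate, and 1 without MDP CD103 high array 4.

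Across the whole set, MDP CD103 high had the highest group mean for 33 of 36 members, the exceptions being Nipbl and Esco1, highest in PBS CD103 low, and Stag2. For 27 members all 3 MDP CD103 high arrays lay above all other 10 arrays, which held for 2.11% of all genes. The lowest mean was in PBS CD103 high for 20 members and in MDP CD103 low for 16. Of the 19 genes that rose with MDP in CD103 high cells, Esco2, Ncapg2, Ect2, Smc1a and Smc3 kept their call under 21 of 22 alternative settings, each losing it with the replicate number as a fixed term.

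Members moved together within groups as well. MDP CD103 low array 1 was the lowest array of its group for 31 of 36 members, and its mean deviation from the members' own means was -0.41, against -0.03 and -0.08 for arrays 2 and 3. In that array Itgae was 10.68, against 10.07 and 9.64. PBS CD103 high array 4 was the highest of its group for 30 members and array 6 the lowest for 26, PBS CD103 low array 6 was the lowest of its group for 27, and MDP CD103 high array 4 was the lowest of its group for 31. The members' mean deviation in MDP CD103 high arrays 2, 3 and 4 was 0.46, 0.49 and 0.25, all above the 10 other arrays.

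Same-numbered arrays of a treatment, which come from both fractions, could be set side by side in 4 cases. CD103 high minus low had a member median of 0.51 for MDP number 2 and 0.67 for MDP number 3, with 34 of 36 members above 0 in each. For PBS number 4 it was 0.02, with 22 of 36 above 0, and for PBS number 6 it was -0.16, with 7 of 36 above 0. Within the arrays with high and with low Xist the member median for MDP against PBS in CD103 high cells was 0.52 and 0.83, and for CD103 high against low after MDP it was 0.48 and 0.78. All 19 and all 11 called members lay above 0 on both sides in the comparison that called them. This had to be so, because their arrays did not overlap between the groups, and it is no test of the sides. On the side with low Xist, MDP against PBS in CD103 high cells sets 1 array against 1. Kif4, Smc1a and Stag2 are X-linked, and within the sides MDP and PBS CD103 high cells differed by 0.79 and 1.10 for Kif4, 0.44 and 0.51 for Smc1a and 0.13 and 0.21 for Stag2.

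**Figure D5:**
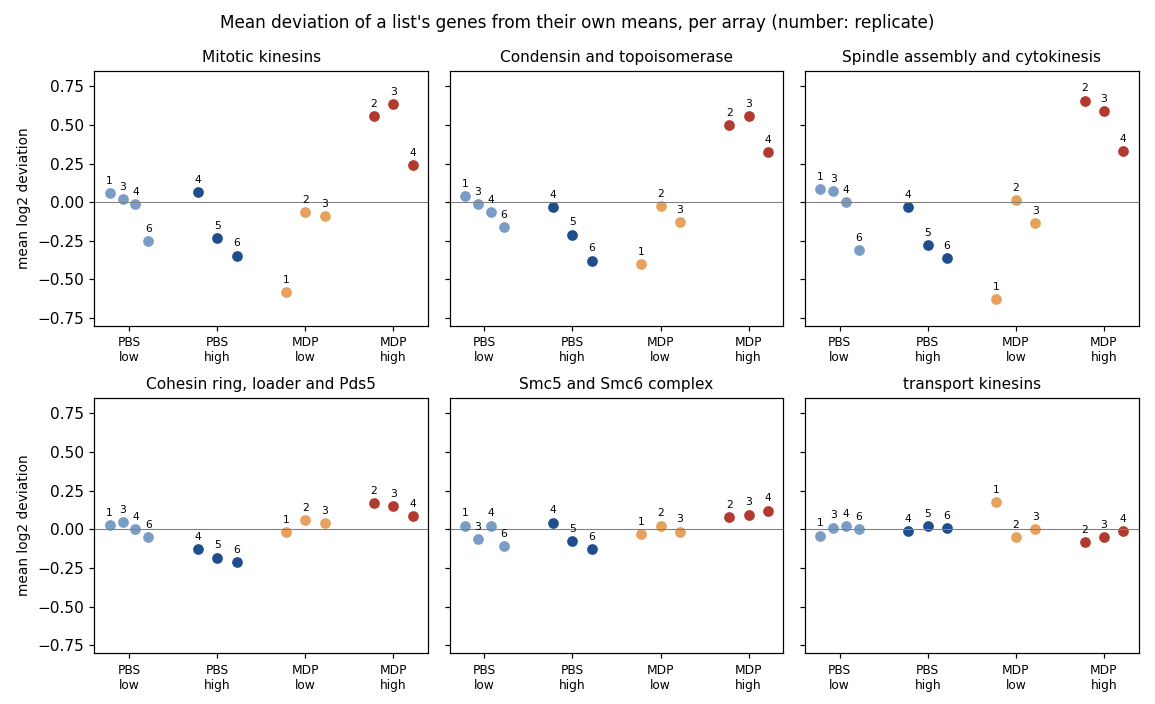
Mean deviation of a list's genes from their own means in each array (points, numbered by replicate), in log2 units, for 4 member lists and, in the last 2 panels, the Smc5 and Smc6 complex and the transport kinesins. Colours and x positions are the 4 groups. MDP CD103 high is the highest group in the first 5 panels, by less in the cohesin ring and Smc5 and Smc6 panels, and the transport kinesins stay near 0 except MDP CD103 low array 1 at 0.18.

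Genes that work with these members but are not in the set were counted too. They were 30 measured genes of the chromosomal passenger complex, mitotic kinases and cyclins, cohesin release, and spindle and midbody proteins. With MDP in CD103 high cells 11 of the 30 rose, against 1.42% of all genes. In CD103 high against low cells after MDP 7 were higher, against 0.473% of all genes. How far these calls depend on single arrays or on the replicate number was not tested. None of the 30 fell in either, and their medians were 0.61 and 0.69. The passenger complex, which corrects attachments and marks the midzone, had 3 of 4 genes up with MDP, Aurkb (0.79 ± 0.17), Incenp (0.68 ± 0.15) and Cdca8 (0.62 ± 0.14), at limma adjusted p = 0.0349, 0.0416 and 0.0476. Of 9 mitotic kinases, cyclins and anaphase genes 5 rose, among them Ttk (0.90 ± 0.15), the kinase at the head of the spindle checkpoint, and Bub1 (0.84 ± 0.16), its centromere kinase (adjusted p = 0.0118 and 0.0161). Mastl, the kinase that holds back the phosphatase opposing Cdk1, was 1.18 ± 0.18, or 2.26-fold, higher in CD103 high than low cells after MDP (adjusted p = 0.018).

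Cohesin release was mixed. Espl1, the separase that cuts Rad21, rose by 0.52 ± 0.11 with MDP in CD103 high cells and was 0.67 ± 0.11 higher between the fractions after MDP (limma adjusted p = 0.0269 and 0.0193), and Sgo1, which guards centromeric cohesin, was 0.70 ± 0.14 higher between the fractions (adjusted p = 0.0416). These were the calls among 7 genes of that list, whose medians were 0.12 and 0.08. Of 10 spindle, midbody and chromosome surface genes 2 rose, Cit (0.75 ± 0.12), the citron kinase of the midbody, and Nusap1 (0.75 ± 0.16), a microtubule bundler (adjusted p = 0.0106 and 0.029). In the Smc5 and Smc6 complex, the third SMC machine, which acts in repair, Smc6 rose by 0.42 ± 0.08 (adjusted p = 0.0218) and the other 5 genes did not pass.

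Related genes without a mitotic role were counted as well. Of 17 transport kinesins 0 passed in any of the 5 comparisons, with medians of -0.01 for MDP against PBS in CD103 high cells and -0.03 between the fractions after MDP. None of 4 germline cohesin genes passed either. Their mean per array was 4.18 to 4.56, below the olfactory level of 5.12, so they cannot serve as a contrast. At an unadjusted p under 0.05 in limma, 2 and 1 transport kinesins passed in these comparisons and 0 germline cohesin genes in either. Over all 22180 genes, 2956 and 2255 passed in this way.

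Markers of other cells differed in level. All 4 measured erythroid markers, 6 of 8 neutrophil and granulocyte precursor markers and 4 of 7 B16 melanoma markers, Dct, Tyr, Tyrp1 and Mlana, had means below the olfactory level. All 6 monocyte and macrophage, all 5 plasmacytoid and 4 of 6 stem and progenitor markers had means above it. So did 1 of 6 measured B and plasma cell, 1 of 4 T cell and 2 of 5 NK cell markers. The mean of the erythroid list ran from 4.86 to 4.95 in MDP CD103 high and from 4.81 to 5.11 in the other groups, and that of the stem and progenitor list from 6.39 to 6.46 and from 6.34 to 6.58. No gene of the erythroid, neutrophil, B16 melanoma or stem and progenitor lists passed in any comparison. The same held for the B cell, T cell, NK cell and monocyte lists. With MDP in CD103 high cells the monocyte marker Ccr2 differed by 0.73 ± 0.27 and the progenitor marker Meis1 by 0.29 ± 0.18, each with all MDP arrays above the PBS arrays, and Lyz2 by -0.60 ± 0.17 with all below (limma adjusted p = 0.245, 0.550 and 0.101). Of the 6 stem and progenitor markers, Meis1 alone lay above 0 there and 5 lay below. Among these 5, Spi1 differed by -0.19 ± 0.08, also with all MDP arrays below the PBS arrays (limma adjusted p = 0.302). The monocyte list's mean ran from 7.10 to 7.37 in MDP and from 7.08 to 7.34 in PBS CD103 high arrays. Sirpa, a marker of cDC2, was lower in CD103 high than low cells after MDP (limma log2 difference -0.50 ± 0.09, adjusted p = 0.0308). Pacsin1, a plasmacytoid marker, was higher in CD103 high than low cells of PBS mice (0.90 ± 0.13) and lower with MDP in CD103 high cells (-0.77 ± 0.14; limma adjusted p = 0.0294 and 0.0130). The plasmacytoid list's mean was 7.10 to 7.20 in PBS CD103 high and 6.82 to 7.003 in the other groups, but its genes did not move alike. In CD103 high against low cells of PBS mice 3 of the 5 genes lay above 0 and 2 below, with a median of 0.09. With MDP in CD103 high cells all 5 lay below 0, with a median of -0.11. Only Pacsin1 had non-overlapping arrays in either comparison. The part of any of these markers in the members' values was not tested.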

How the data were processed

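RNA of 13 sorted cell samples was pre-amplified and hybridised to Mouse Gene 2.0 ST arrays, per the labels' protocols. The authors deposited log2 expression values made by RMA in the Affymetrix Expression Console, per the submitters' processing notes. The genome build behind the probe sets: not given in the sources used here. This method draws the arrays to a common distribution, so a shift of all genes at once would not be seen. Of 41345 probe sets, 23521 carry 1 gene symbol, 1814 several and 16010 none in the annotation used, and the probe set with the highest mean stood for each of 22180 genes. The number of arrays limits the precision, and the median SE of a difference was 0.103 to 0.151.

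Groups came from the sample titles. limma 3.58.1 (R 4.3.3) fitted 1 mean per group over all 13 arrays, and p-values were two-sided, moderated (lmFit, contrasts.fit, eBayes) and adjusted by Benjamini-Hochberg over all genes of a comparison, with a threshold of 0.05. The code was tested on simulated data. Lists and figures used Python 3.11.15, pandas 2.3.3, numpy 2.4.6 and matplotlib 3.10.9. The members and lists were chosen with earlier results of these data known. Values of every array are given for the members with the 10 smallest p-values and for at least 1 member of each functional group, and from other lists up to 3 called genes in a comparison.

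Arrays of the same treatment and replicate number in the titles come from both fractions. Their deviations from the group means correlated in all 4 such pairs (r = 0.12 to 0.29). The 4 pairs also share their side of Xist, and other pairs of arrays from different groups ran from -0.37 to 0.40. Whether the numbers mark pairs is therefore not settled. The main fit did not use them, and its p-values are unpaired. A random block of arrays with the same treatment and number (correlation 0.183) was an alternative. Other alternatives left out each array, fitted only the arrays compared, changed scaling, filter, probe set rule or variance model, or added a Y-linked covariate.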

Additional observations from a re-analysis of the deposited data

Results flagged for a closer look

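Among the 4 PBS CD103 low arrays, 5 of 36 members had an array past the limit of Dixon's test for a value apart from the others, which chance passes in about 1 in 20 groups. These were replicate 6 for Smc1a (9.54) and Tpx2 (7.56) and replicate 1 for Ncapg2 (7.82) and Esco1 (9.40). Kif23 in replicate 6 (9.996) is close to the others, and passed because those 3 arrays hold the same value, 9.984. The other groups hold 3 arrays and were not tested in this way. How many of all genes passed the limit was not counted, and members moved together within arrays. The 5 are therefore not read as an excess. In 4 members the signed difference of MDP minus PBS was higher in the CD103 high than in the low fraction by limma's interaction test. The values were 1.43 log2 units for Esco2, 1.27 for Kif4, 1.12 for Ncapg2 and 0.93 for Kif18b, each at an adjusted p of 0.0486. In these 4 the difference was above 0 in the high and below 0 in the low fraction.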

How the results depend on the processing

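For MDP against PBS in CD103 high cells, 19 members were called, 5 to 24 with 1 array left out and 11 with only the arrays compared. For CD103 high against low after MDP, 11 were called, 0 to 12 with 1 array left out, 0 with only the arrays compared and 6 with the Y-linked covariate. For the interaction, 4 were called, 0 to 9 with 1 array left out, 0 with the Y-linked covariate, and 13 both when genes under the median level were left out and with a trended, robust variance. Both other comparisons called 0 members in every setting run. With the replicate number as a fixed block the 3 counts were 0, 0 and 0. With arrays of the same treatment and number as a random block they were 19, 14 and 6. Member medians kept their sign: 0.55 to 0.73 for MDP in CD103 high cells and 0.48 to 0.74 between fractions after MDP with 1 array left out, and 0.35 to 0.64 and 0.61 to 0.66 under the other alternatives. No named result reversed its direction under these settings. All members lay above the olfactory receptor level on every array, so signal over background did not limit which could be measured.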
